A study of Rattus norvegicus with 6 samples.

Results

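The cells described are 444 of 11744 cells in 6 single-cell libraries of the rat testis, those that scored highest on Psma8, Piwil1 and Sycp3. They are labelled pachytene-like spermatocytes. Other pachytene genes such as Sycp1 and Tdrd5 were highest in the 326 with counts for all 3 genes and low in the rest. That split uses the genes that chose the cells, so it describes the members and is no test of the name. They were chosen from the measured values. Each gene of 10 sets of 3 genes was standardised over all cells in the normalized tables, each set was scored by the mean of its 3 standardised values, and a cell joined the set with its highest score. The set of Psma8, Piwil1 and Sycp3, called the rule genes below, gave the 444 members. The libraries came from the testicular tissue of SD rats, an outbred laboratory strain, 1 library per animal. The 3 control animals are labelled normal, and the 3 stressed animals had been through a model of psychological stress induced by a terrifying sound. No transgene or drug is named for either group, and the sources used here do not give the ages, the length of the sound exposure or the time from exposure to sampling. The question of the study is how such stress disturbs the formation of sperm.

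Spermatocytes are male germ cells in meiosis. In the pachytene stage the homologous chromosomes are joined along their length by the synaptonemal complex, a protein ladder, while DNA breaks are repaired by recombination. The X and Y chromosomes are silenced in a separate chromatin body at this time. Pachytene cells also make large numbers of piRNAs, short RNAs carried by PIWI proteins such as Piwil1 (MIWI). Psma8 is a testis form of a proteasome alpha subunit, and Sycp3 is part of the lateral element of the synaptonemal complex. Pachytene piRNA precursors and Piwil1 are known to be switched on by the transcription factor A-MYB, encoded by Mybl1.

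The promoters of 3 pachytene genes are shown because the Mybl1 product binds the short motif CAACNG, where N is any base. Each sequence is the 250 bases before the gene's start, taken from RefSeq on assembly GRCr8 and written 5′ to 3′ on the gene's strand, and capitals mark matches to CAACNG or to its reverse complement CNGTTG. Piwil1 is at chr12:33606584-33606833 on the minus strand, Sycp3 at chr7:24761226-24761475 on the plus strand, and Tdrd5, a tudor-domain protein of the piRNA pathway, at chr13:70991581-70991830 on the minus strand.
Piwil1: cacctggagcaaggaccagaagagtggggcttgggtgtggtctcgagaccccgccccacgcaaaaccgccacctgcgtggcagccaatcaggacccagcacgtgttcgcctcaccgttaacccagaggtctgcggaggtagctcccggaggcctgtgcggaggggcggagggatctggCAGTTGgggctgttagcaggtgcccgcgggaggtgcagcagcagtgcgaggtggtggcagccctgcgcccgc
Sycp3: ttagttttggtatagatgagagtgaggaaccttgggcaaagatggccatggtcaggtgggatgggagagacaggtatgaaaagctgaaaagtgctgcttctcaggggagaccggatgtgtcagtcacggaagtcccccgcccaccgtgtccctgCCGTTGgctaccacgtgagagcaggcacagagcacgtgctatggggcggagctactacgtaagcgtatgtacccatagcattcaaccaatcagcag
Tdrd5: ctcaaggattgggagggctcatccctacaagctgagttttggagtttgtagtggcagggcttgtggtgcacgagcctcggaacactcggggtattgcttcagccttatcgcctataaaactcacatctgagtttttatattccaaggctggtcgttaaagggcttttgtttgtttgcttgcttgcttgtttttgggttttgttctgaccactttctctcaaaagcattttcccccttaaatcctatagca
Piwil1 held 1 match, whose first base lies at -72 from the start, and Sycp3 held 1 at -96. Tdrd5 held none in this window. Of the 20 genes that led the members (listed below), 18 had a promoter in the RefSeq table and 9 of these, 50%, held a match, against 32.0% of 27457 genes in the table. A match is a run of letters and not a measured binding site, and 20 genes give no precise share.

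In what follows, CPM is counts per 1000000 of the members' summed counts in a library, and values are given in the order control replicates 1, 2 and 3, then stressed replicates 1, 2 and 3. Control replicates gave 158, 57 and 53 members and stressed replicates 9, 88 and 79. Their summed counts were 6584262, 1883473 and 2227333, then 432224, 3052426 and 2084269. Stressed replicate 1, with 9 cells, thus has the least precision: 3 counts there are 6.94 CPM, against 0.456 to 1.59 CPM in the others. The members' median counts per cell lay between 23899 and 36943. Whole libraries held 409 to 2506 cells and 16756543 to 114984746 counts, and stressed replicate 1 was the smallest in both. Libraries shared 2 cell barcodes, and none belonged to a member. Scrublet called 5 of the 444 members doublets (1.13%), against 0.622% of all cells, and these were left in.

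Psma8 stood at 1423, 2158 and 687 CPM, then 1429.8, 2238 and 1258 CPM. Control replicate 3 was the lowest, and the groups overlapped. Piwil1 read 724, 893 and 439 CPM, then 706, 628 and 403 CPM, and Sycp3 702, 1230.2 and 372 CPM, then 1018, 798 and 498 CPM. These values chose the cells and are given as a description. The set nearest in score was that of Aurka, Tpx2 and Cdca8, genes of the spindle and of chromosome segregation, called the late meiotic set: it held 1066 cells and was the next best set for 350 of the 444 members. There the means over libraries were 172 CPM for Psma8, 46.7 CPM for Piwil1 and 238 CPM for Sycp3.

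The label of pachytene-like cells was checked on genes outside the rule. The cells were sorted by measured levels of the set genes, and other genes can vary with these. The comparisons with other cells that follow are therefore descriptions without tests. All 20 of the pachytene markers listed were found. Of 13 outside the rule with a mean of at least 10 CPM over the 10 sets, 5 were above every other set in all 6 libraries (Sycp1, Sycp2, Hormad1, Tdrd5 and Tdrd9), and 8 were above the late meiotic set on average. Sycp1, the transverse filament of the synaptonemal complex, read 346, 787 and 233 CPM, then 1016, 570.4 and 169 CPM, with a mean of 91.3 CPM in the late meiotic set. Sycp2, a partner of Sycp3 in the lateral element, read 764, 1406 and 419 CPM, then 884, 1091 and 564 CPM. Hormad1, an axis protein that monitors pairing, read 379, 914 and 203 CPM, then 1196, 513 and 206 CPM. In each of the 6 libraries these 3 genes were higher in the members than in every other set. Stressed replicate 1 is led by single cells: 376 of its 439 Sycp1 counts and 385 of its 517 Hormad1 counts came from 1 cell each.

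**Figure D1:**
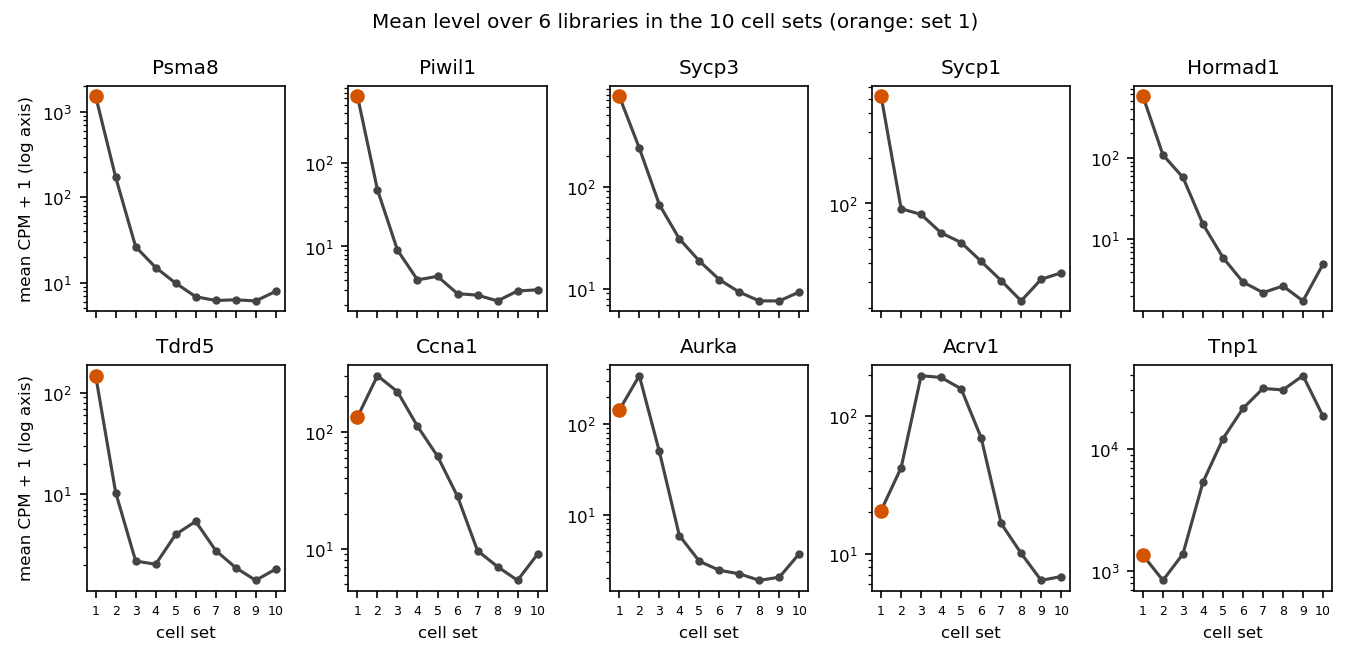
Mean level over the 6 libraries (CPM plus 1, log axis) of 10 genes in the 10 cell sets, with set 1, the pachytene-like cells, in orange. The synaptonemal genes and Tdrd5 are highest in set 1, Ccna1 and Aurka in set 2 (the late meiotic set), Acrv1 in set 3 and Tnp1 in set 9.

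Genes listed for earlier cells were mixed. Prdm9, which places meiotic DNA breaks, Mei4, a break factor, and the spermatogonial genes Dmrt1, Sohlh1, Zbtb16 and Nanos3 had no count in any member. Stra8, the switch into meiosis, had 1 count in all members, and Dmc1, the early strand-exchange recombinase, read 0 to 6.37 CPM. Other genes of these lists were well detected. Id4, a regulator of spermatogonial stem cells, read 388, 354 and 253 CPM, then 183, 477 and 369 CPM, and Top2a, a topoisomerase, 566 to 1062 CPM. Dmrtb1, of the entry into meiosis, read 195 to 364 CPM, Pcna, of DNA replication, 106 to 410.4 CPM, and Spo11, which makes the meiotic breaks, 23.5 to 56.5 CPM. The spermatogonial markers summed to 257 to 503 CPM, against 183 to 313 CPM in the late meiotic set. Genes listed for cells before pachytene summed to 1110.3 to 2457 CPM, against 949 to 1902 CPM. Later genes were present at lower levels than in the late meiotic set. Ccna1, the meiotic cyclin A, read 163, 63.7 and 144 CPM, then 146, 73.4 and 206 CPM, against a mean of 300.1 CPM there. Ccnb1, cyclin B1 of the division itself, read 152, 97.2 and 198 CPM, then 48.6, 113 and 220.2 CPM, against 397 CPM. By contrast H1f6, the linker histone H1t that appears in mid pachytene, read 45.6, 53.6 and 18.0 CPM, then 30.1, 26.9 and 13.4 CPM, against 1.02 CPM. All 6 member values of H1f6 lay above the highest of the late meiotic set, 1.88 CPM. Hspa2, a meiotic HSP70, read 1051 to 1449 CPM and was close to the late meiotic mean of 1124 CPM.

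The 20 leading genes are those with a symbol and a mean of at least 50 CPM whose lowest log2 ratio to the highest other set, over the 6 libraries, was greatest. Of 2933 such genes, 393 were above every other set in all 6 libraries and 67 were at least 2-fold above it. In order they were Coprs, Tdrd5, Paip1, Piwil1, Myef2, Fbxo43, Sprtn, Mrpl45, Rpl19, Psma8, B3galnt1, Rpl35, Cdc20, Tpr, Eml4, Cklf, Thoc7, Rif1, Stk31 and Naa35. Psma8 and Piwil1 are rule genes.

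Coprs, a histone-binding partner of the arginine methyltransferase PRMT5, read 90.7, 185 and 32.3 CPM, then 183, 151 and 49.9 CPM, with a mean of 6.77 CPM in the late meiotic set. Tdrd5 read 147, 269.7 and 47.1 CPM, then 157, 189 and 70.0 CPM, against 9.34 CPM. Sprtn, a protease that clears proteins crosslinked to DNA, read 374, 499 and 136 CPM, then 493, 458 and 206 CPM, against 20.9 CPM. In all 3, control replicate 3 and stressed replicate 3 were the lowest libraries, and the groups overlapped. Paip1, a partner of the poly(A)-binding protein in translation, read 70.5 to 243 CPM and at most 15.1 CPM in a library of the late meiotic set. Fbxo43 (Emi2) and Cdc20 act in opposite directions on the anaphase-promoting complex, as inhibitor and activator. Fbxo43 read 145, 247 and 38.6 CPM, then 171, 251 and 113 CPM, against 19.8 CPM. Cdc20 read 154, 244 and 85.3 CPM, then 164, 207 and 114 CPM, against 26.1 CPM. Both were thus higher in these cells than in the set led by spindle genes. Thoc7 of the mRNA export complex THO read 242 to 868 CPM against 70.7 CPM, and Tpr of the nuclear pore basket 97.4 to 364 CPM against 52.9 CPM. Rif1, known for DNA break repair, read 87.5 to 381 CPM against 46.8 CPM, and Stk31, a testis kinase with a tudor domain, 155 to 625 CPM against 85.3 CPM.

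**Figure D2:**
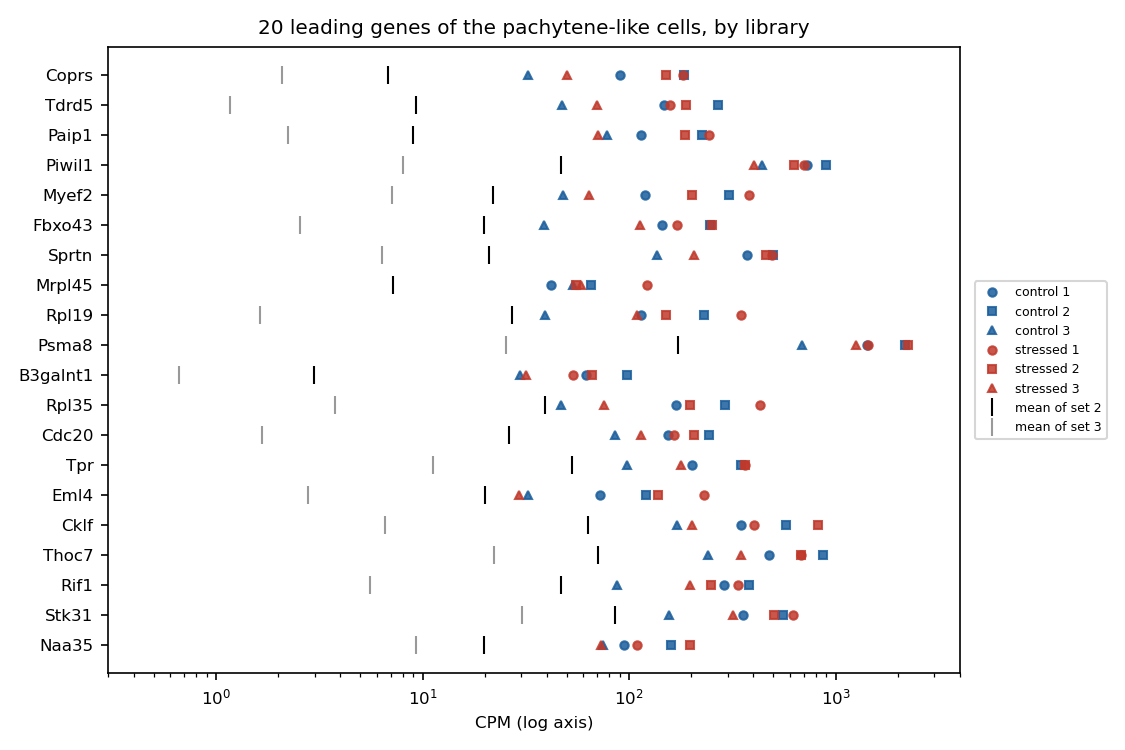
CPM (log axis) of the 20 leading genes in the members of each library (blue control, red stressed, symbol by replicate), with bars at the mean of the late meiotic set and of set 3, which was defined by Tssk5, Itih3 and Lrrc34. For Coprs, members span 32.3 to 185 CPM while the late meiotic mean is 6.77 CPM, and the triangles of both replicates 3 lie toward the low end for most genes.

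The members were next described by gene lists grouped by function. Counts are of genes with a mean of at least 10 CPM over the 10 sets. Of all 5767 such genes, 408 (7.07%) were above every other set in all 6 libraries and 2472 (42.9%) were above the late meiotic set on average, with a median log2 ratio of -0.12 (1 CPM added). These shares are the background for the counts below.

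Among synaptonemal and axis genes, 4 of 6 were above every other set in all libraries, Sycp1, Sycp2, Sycp3 and Hormad1, and the median log2 ratio to the late meiotic set was 1.45. Sycp3 is a rule gene. Syce1, of the central element, was at 162 to 236 CPM and had a mean of 229 CPM in the late meiotic set. Of the meiotic cohesins and their guardians, 2 of 10 were, Stag1 (34.1 to 140.2 CPM) and Sgo2 (62.0 to 296 CPM). Stag3, the meiotic cohesin subunit, read 64.2 to 139 CPM against 93.2 CPM in the late meiotic set, and Smc1b 467 to 809 CPM against 543 CPM. Of the recombination genes 2 of 5 were, Zcwpw1, a reader of the Prdm9 histone mark, and Rec114. Zcwpw1 read 109.8, 161 and 65.5 CPM, then 333, 132 and 94.5 CPM.

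The piRNA list had 8 of 17 genes above every other set in all libraries: Piwil1, Tdrd1, Tdrd5, Tdrd9, Tdrd12, Asz1, Rnf17 and Fkbp6. Its median log2 ratio to the late meiotic set was 0.30. Tdrd1, a scaffold of the PIWI granule, read 353, 630.2 and 106 CPM, then 534, 565 and 256 CPM, against 62.0 CPM. Rnf17, a tudor protein of spermatocyte granules, read 95.7, 223 and 59.7 CPM, then 206, 207 and 71.5 CPM, against 12.2 CPM. Fkbp6, a co-chaperone of piRNA loading, read 286, 410.4 and 182 CPM, then 400.3, 319 and 162 CPM, against 58.7 CPM. Mael, needed to silence transposons, read 424 to 798 CPM against 656 CPM. Pld6 (MitoPLD), on the mitochondrial surface, read 10.6 to 34.0 CPM against 2.18 CPM and was below the 10 CPM needed for the count. Mybl1 itself read 125, 114 and 42.7 CPM, then 137, 98.0 and 79.6 CPM, with a late meiotic mean of 81.6 CPM.

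Of 36 proteasome genes, 25 were above the late meiotic set and 3 above every other set: Psma8, which the rule used, Psmb10, a catalytic subunit of the immunoproteasome, and Pomp, the assembly factor. Pomp read 178, 265 and 154 CPM, then 354, 198 and 147 CPM, against 86.1 CPM. Psma7, the general subunit whose place Psma8 takes, read 3.34, 4.78 and 4.49 CPM, then 53.2, 9.5 and 2.40 CPM. Psme4, the PA200 activator of the testis proteasome, read 374 to 740.1 CPM against 818 CPM.

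Among 23 genes of the late pachytene and diplotene programme, 2 were above every other set, Ldhc and Tex101, and 4 were above the late meiotic set (median log2 ratio -0.39). Ldhc, the germ cell lactate dehydrogenase, read 1641 to 2386 CPM, and Tex101, a surface glycoprotein, 224 to 569 CPM. Of 28 division and spindle genes 3 were, Aurkc (169 to 242 CPM, against 59.2 CPM), Cdc20 and Top2a. Aurkc is the germ cell form of Aurora B. Of 5 genes listed for cells before pachytene, Meioc, which sustains meiotic prophase, and Top2a were above every other set. Meioc read 215, 231 and 109 CPM, then 379, 280.4 and 113 CPM, against 50.8 CPM. Of 17 transcription factors and chromatin readers, Brdt and Kdm1a were. No gene of 9 on sex chromosome silencing and the DNA damage response was.

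Energy and housekeeping genes were described in the same way. Of 63 nuclear genes of oxidative phosphorylation, 48 were above the late meiotic set and 21 above every other set, with a median log2 ratio of 0.37. Of 12 genes encoded in the mitochondrial genome, Mt-nd3, Mt-nd4 and Mt-nd4l were above every other set. Of 58 ribosomal protein genes, a list chosen after their values were seen, 51 were above the late meiotic set and 25 above every other set. The sum over 62 such genes, with those of low level included, was 21711, 31336 and 14978 CPM, then 33235, 24135 and 17726 CPM, against 14593 to 23750 CPM in the late meiotic set. Counts of single ribosomal genes are uncertain, since such genes have many near-identical copies. Of 19 heat shock genes, Hspa4, Hsp90ab1 and Hspb11 were above every other set. None of 3 immediate early genes was.

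The X chromosome was low in these cells. Of 14717 genes with a count that matched RefSeq by symbol, 435 (2.96%) lie on X. They took 0.168%, 0.0665% and 0.476% of the members' counts in control libraries and 0.252%, 0.111% and 0.236% in stressed libraries. In the late meiotic set the shares were 0.311%, 0.437% and 0.429%, then 0.470%, 0.370% and 0.306%. The members were lower in 5 of 6 libraries, and control replicate 3 was the exception. In set 3 the share was 0.594% to 0.688%, and in sets 4 to 10, defined by spermatid genes, 0.697% to 0.912%. Among members with counts for all 3 rule genes the shares were 0.0833%, 0.0489% and 0.121%, then 0.252%, 0.0599% and 0.124%, below the late meiotic set in every library. Members with fewer rule genes stood at 0.450% to 0.693% in the 5 libraries that had any. X-linked genes that remained detectable included Yipf6, of the Golgi membrane, at 22.8 to 455 CPM, and Ndufa1, of respiratory complex I, at 20.6 to 282 CPM. The highest Yipf6 level was in control replicate 3 and the highest Ndufa1 level in stressed replicate 1, where 110 of 122 counts came from 1 cell.

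**Figure D3:**
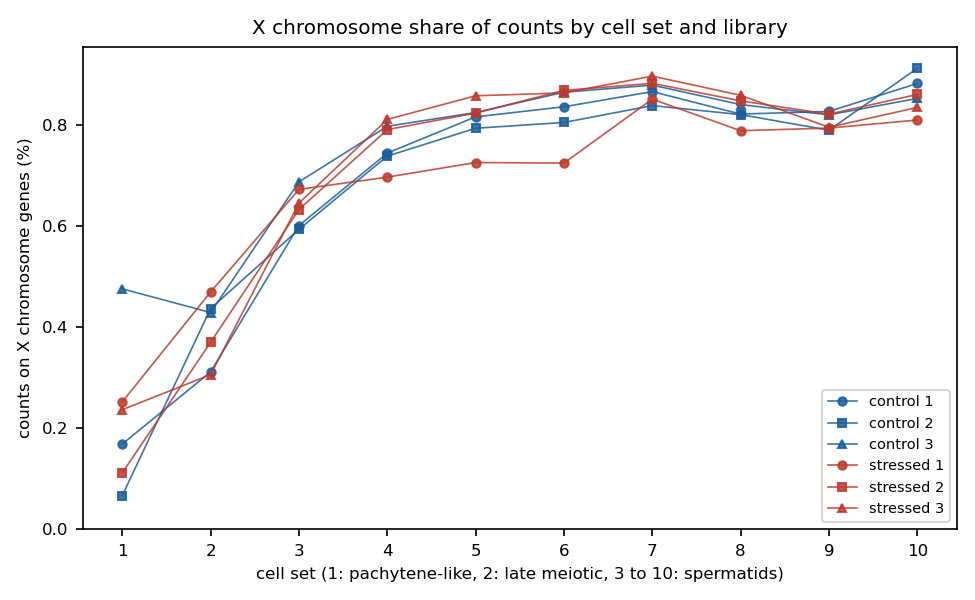
Share of counts on genes of the X chromosome (percent) in each of the 10 cell sets, 1 line per library, blue control and red stressed. The pachytene-like cells (set 1) stand between 0.0665% and 0.476%, and sets 4 to 10 between 0.697% and 0.912%.

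The members were not uniform, and the libraries differed in the kind of cell they gave. All 3 rule genes had counts in 326 members, 2 in 66, 1 in 47, and none in 5, all of which came from control replicate 3. By library, those with all 3 numbered 122, 54 and 17, then 9, 78 and 46. Where all 3 were found, Sycp1 stood at 526 CPM over the pooled cells, against 72.3 CPM with 2 and 71.4 CPM with 1. Tdrd5 went the same way, at 189, 9.09 and 1.32 CPM. Tnp1, a transition protein of spermatids, went the other way, at 601, 3335 and 4832 CPM. The 5 members with none of the 3 had 94.8 CPM of Sycp1, 0 of Tdrd5 and 742 CPM of Tnp1, and so did not continue this order. The members with 1 or 2 rule genes had 100.5 and 458 CPM of Psma8, against 1920.2 CPM with 3. Members with 1 or 2 rule genes thus carried less Sycp1 and Tdrd5 RNA and more Tnp1 RNA than the 326. This split uses the rule genes themselves. The 326 also had more genes per cell, with a median of 2875 against 2093 with 2 rule genes and 1592 with 1. In control replicate 3 the next best set was the late meiotic set for 18 of 53 members, against 131 of 158 in control replicate 1.

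At the boundary of the set, 40 members scored less than 0.1 above their next set and 42 other cells came within 0.1 of joining. The 40 just inside had 398 CPM of Psma8, 123 CPM of Piwil1 and 8.46 CPM of Tdrd5. The 42 just outside had 199.8, 65.4 and 13.2 CPM. Just inside, the rule genes Psma8 and Piwil1 were higher, while the rule gene Sycp3 was lower, at 235 against 342 CPM. Tdrd5 was lower too, as was Sycp1 at 47.9 against 93.3 CPM.

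Libraries differed in spermatid RNA and in pachytene RNA. Tnp1 read 645, 655 and 2439 CPM, then 234, 2615 and 1540 CPM, and Prm2, protamine 2, 750.1, 187 and 2312 CPM, then 171, 1450.0 and 2036 CPM. Among members with all 3 rule genes Tnp1 stood at 239, 184 and 970.4 CPM, then 234, 1454 and 729.8 CPM, while Sycp1 read 423, 820 and 431 CPM, then 1016, 625 and 239 CPM. A balance was chosen after the values were seen: Sycp1, Hormad1, Sycp2 and Tdrd5, summed, over Ccna1, Ccnb1, Ccnb2 and Pgk2, summed. On the log2 scale it was 1.31, 3.33 and 0.30, then 3.16, 2.62 and 0.43. Control replicate 3 and stressed replicate 3 stood together at the low end, with a library of each group at the high end. Stressed replicate 2 combined a high balance with the highest Tnp1 level of all. With members that had all 3 rule genes it was 1.75, 3.52 and 1.79, then 3.16, 2.95 and 1.17.

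**Figure D4:**
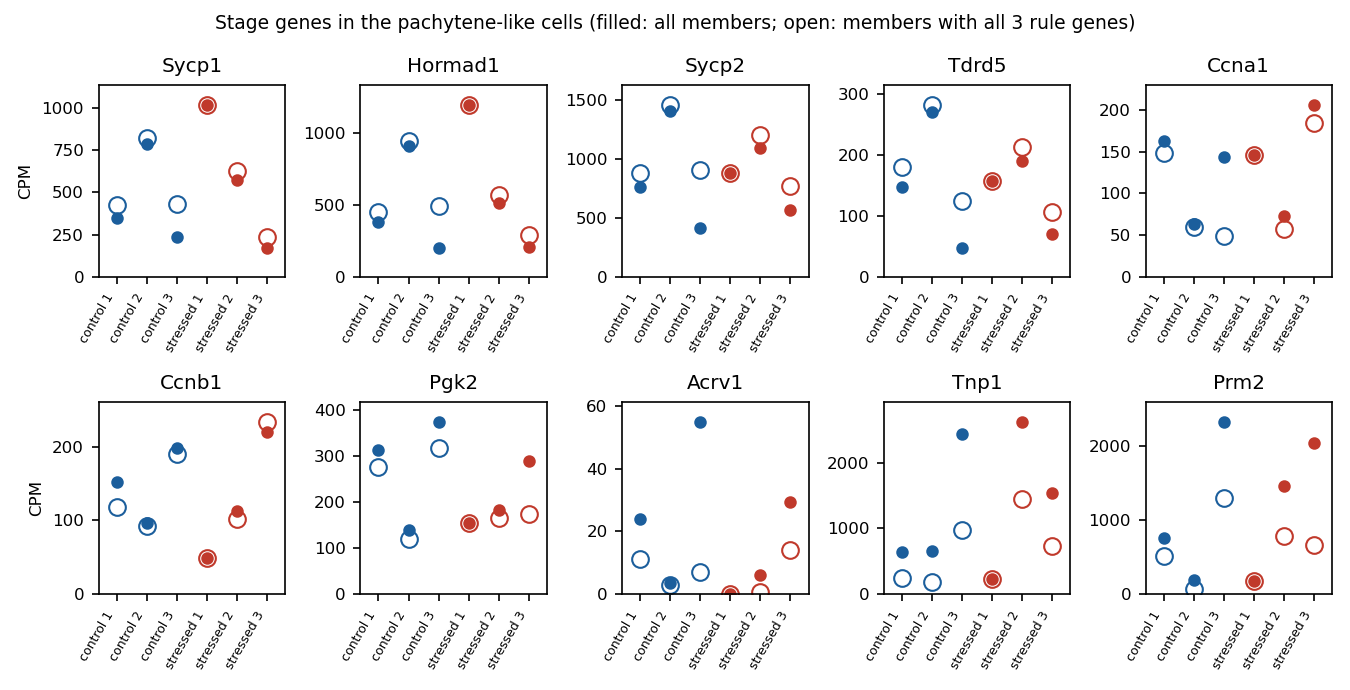
CPM of 10 stage genes in the members of each library (blue control, red stressed), with filled points for all members and open circles for members with counts for all 3 rule genes. Sycp1 in control replicate 3 moves from 233 to 431 CPM and Tnp1 from 2439 to 970.4 CPM between the filled and open points.

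The 2 libraries with the lowest balance also had the fewest genes per member, but opposite depths. Median counts per member were the highest in control replicate 3 (36943) and the lowest in stressed replicate 3 (23899). Median genes per member were 2630.5, 3328 and 1772, then 3012, 2516.5 and 2146. Thinned to 10000 counts per cell, with no cell left out, they were 1911, 2456 and 1409, then 2298, 2006 and 1729. Control replicate 3 and stressed replicate 3 were the lowest at equal depth too. This was not particular to the members for control replicate 3, which was also the lowest in the late meiotic set at that depth (1551). There stressed replicate 3 (1925) lay above control replicate 1 (1899). No stressed library held a cell above 3500 genes, whereas control replicates 1, 2 and 3 held 157, 349 and 2. Of these, 20, 24 and 0 were members. The most genes in any cell of a library were 3984, 3996 and 3559, then 3491, 3498 and 3499. The cell filter is not given, and whether its upper limit on genes differed between libraries was not tested. Summed markers of elongating spermatids were 5276 to 21327 CPM in the control members and 2985 to 12760 CPM in the stressed. Round spermatid markers summed to 495 to 2992 and 301 to 1454 CPM. Both lists include genes that defined other sets, so their levels took part in choosing the cells. Macrophage markers summed to 53.4 to 118 CPM in 5 libraries and to 2087 CPM in stressed replicate 1, with Csf1r and Cd163 at 0. Peritubular, stromal and endothelial markers summed to 26.2 to 70.6 CPM in the same 5 libraries and to 2008 CPM in stressed replicate 1, with Lum, Pecam1 and Kdr at 0. In stressed replicate 1, 300 of 431 Apoe counts and 242 of 251 Sparcl1 counts came from 1 cell each. In the late meiotic set the macrophage list reached 659 CPM in a library and the peritubular, stromal and endothelial list 1633 CPM. Leydig markers summed to 0 to 3.72 CPM with Cyp11a1, Cyp17a1, Hsd3b1 and Cyp19a1 at 0, and markers of T and natural killer cells to 0 to 9.03 CPM. Sertoli markers summed to 596 to 888 CPM, nearly all of it Tf, with Gata4, Amh and Inhbb at 0. The part of spermatid RNA, gene number and other cell types in the results was not tested.

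Whether stress changed the number of these cells was asked first. Members made up 6.75% (Wilson 95% interval 5.80 to 7.83), 3.16% (2.45 to 4.08) and 2.16% (1.66 to 2.82) of the control libraries. In the stressed libraries they made up 2.20% (1.16 to 4.13), 3.51% (2.86 to 4.31) and 3.54% (2.85 to 4.39). Control replicate 1 was the highest, and the other control libraries lay within or below the range of the stressed. The means were 4.02% ± 2.41 (SD, n = 3) and 3.08% ± 0.765 (SD, n = 3), a difference of -0.941 percentage points with a 2-sided exact permutation p of 0.9 (adjusted over 2 shares, 1), and a design of 3 against 3 animals cannot go below 0.1. Without control replicate 1 the difference turned to 0.421 points. Of the cells in the pachytene-like and late meiotic sets together, members were 31.9%, 31.1% and 33.1% in control libraries and 36.0%, 35.5% and 19.8% in stressed libraries. Stressed replicate 3 was low (interval 16.2 to 24.0). The means were 32.0% ± 1.00 and 30.4% ± 9.18 (SD, n = 3 each), a difference of -1.60 points with an exact permutation p of 1 (adjusted 1). Without stressed replicate 3 the difference turned to 3.70 points (exact permutation p = 0.1, the smallest possible). The intervals cover counting error only.

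Whether the cells' RNA differed between stressed and control animals was tested on summed counts with the quasi-likelihood test of edgeR, with Benjamini-Hochberg adjustment over all genes tested. Stressed replicate 1 had fewer than the 20 members needed and was not in the fit, which thus compared 3 control with 2 stressed libraries. The test called 0 of 8782 genes (0%) at an adjusted p under 0.05, and the smallest adjusted p was 0.9999. At an unadjusted p under 0.05 there were 70 genes (0.797%), and DESeq2 called 1 (0.0114%). Both stressed libraries lay above all 3 controls in 390 genes (4.44%) and below them in 649 (7.39%). Over all genes the median log2 change was -0.09. A p-value here measures the spread between animals, since the labels give each library its own rat.

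The genes named next come from the 10 higher and 10 lower in stressed animals with the smallest p among those whose groups did not overlap. None passed the adjusted test, and each has an adjusted p of 0.9999 in edgeR. Hypk, a partner of the N-terminal acetyltransferase NatA, read 234, 183 and 199 CPM in the controls and 460.3 and 568 CPM in stressed replicates 2 and 3 (log2 change 1.37, SE 0.30). Stressed replicate 1, outside the fit, had 41.6 CPM, below every control. Kif20b, a kinesin of cell division, read 513, 484 and 379 CPM, then 523, 802 and 866 CPM (log2 change 0.92, SE 0.24). Bbof1, a protein of ciliary basal bodies, read 2457, 2656 and 2704 CPM, then 2464, 4012 and 4138 CPM (0.68, SE 0.21). Stressed replicate 1 of Bbof1 lay within the controls. Ccdc172, a coiled-coil protein, read 311, 391 and 331 CPM, then 472, 563 and 561 CPM (0.75, SE 0.27), above every control in all 3 stressed animals.

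Tpx2, a spindle assembly factor and a gene of the late meiotic rule, read 350.4, 389 and 212 CPM, then 386, 508 and 524 CPM (log2 change 0.78, SE 0.30). Efcab5, a calcium-binding protein, had a log2 change of 0.85. Few counts lay behind Tent4a, Zfp42l and Rbmy1j. Tent4a, a poly(A) polymerase, read 1.80 to 2.65 CPM in the controls and 8.19 to 22.1 CPM in the stressed. Zfp42l read 0.531 to 0.898 and 2.31 to 8.64 CPM. Rbmy1j, of the multicopy Rbmy family on the Y chromosome, whose copies share reads, read 1.06 to 1.80 and 5.57 to 17.3 CPM. Stressed replicate 1 lay above all controls in 5 of the 10 genes. Of these, Tent4a had 4 counts there, Zfp42l 1 and Rbmy1j 5, in a library where 3 counts are 6.94 CPM. Kif20b lay little above the highest control, at 523 against 513 CPM. The share over all genes is not given, so the count is no result about these genes.

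The 10 lower genes all had few counts in the stressed animals. Pheta1, an endosomal adaptor, read 15.5, 25.0 and 17.1 CPM, then 0, 1.31 and 0.480 CPM (log2 change -4.27, SE 1.0), from 187 counts in the controls and 5 in the 2 stressed libraries fitted. Polr3f, an RNA polymerase III subunit, read 8.20, 11.7 and 18.0 CPM, then 0, 0.983 and 0.960 CPM (-3.64, SE 1.11). Clk1, a kinase of splicing factors, read 14.6, 20.2 and 27.4 CPM, then 2.31, 2.95 and 2.88 CPM (-2.80, SE 0.86). All 3 stressed animals were below all controls for these genes, although 3 counts in stressed replicate 1 would already be 6.94 CPM. Rbfox2, a splicing regulator, read 10.8 to 27.8 CPM in controls and 0 to 1.97 CPM in stressed animals.

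For Usp40, a deubiquitinase, Zfyve19 of the abscission checkpoint, and Use1, a SNARE of the endoplasmic reticulum, stressed replicate 1 went against the fitted libraries. All 47 of its Use1 counts and all 10 of its Zfyve19 counts came from 1 cell each, and 13 of its 23 Usp40 counts. Use1 read 25.2, 49.4 and 26.5 CPM, then 108.7, 9.5 and 5.76 CPM (-2.07, SE 0.69), and with stressed replicate 1 added its log2 change became 0.28. That of Usp40 went from -2.89 to -0.20, and that of Zfyve19 from -2.56 to -1.12. Tgfbr1, a TGF-beta receptor, had 49 counts in the controls and 0 in the 2 stressed libraries fitted, at least 7.84-fold lower against a floor of 3 counts over the group. Spindoc had 101 and 2 counts, a ratio of 24.3 (counting interval 6.54 to 203), and Tctn1, of the ciliary base, 111 and 3 counts, a ratio of 17.8 (5.93 to 87.5). Control replicate 3 held 65 of the Tctn1 counts, 40 of them in 1 cell, and without it the log2 change went from -4.44 to -3.05. Stressed replicate 1 lay below all controls in 7 of the 10 lower genes and was at 0 in 5, where 3 counts are 6.94 CPM. The share over all genes is not given for this count either.

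**Figure D5:**
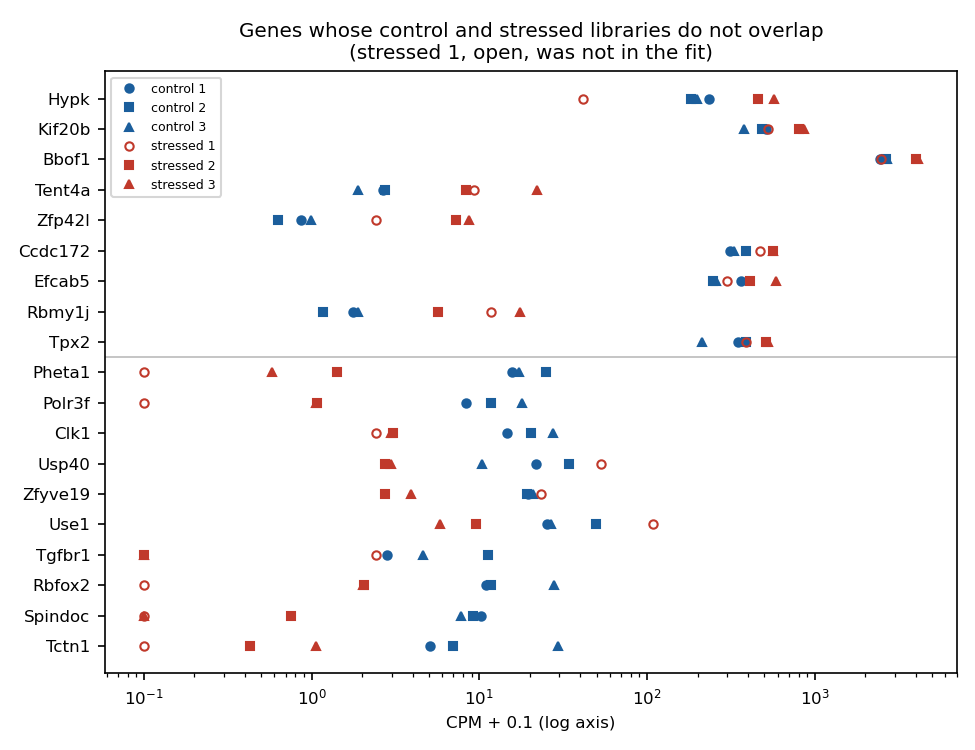
CPM plus 0.1 (log axis) of 9 genes higher and 10 lower in stressed animals, in each library, blue control and red stressed, with stressed replicate 1, which was not in the fit, as open circles. The filled red and blue points do not overlap because the genes were chosen so, and the open circle falls among or beyond the controls for Hypk, Bbof1, Usp40 and Use1, among others.

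The gene that DESeq2 called, AABR07001902.1, has no symbol in the deposited tables. It read 3.49, 2.12 and 3.14 CPM, then 87.9, 39.3 and 28.3 CPM. All 3 stressed animals were above all controls. Its log2 change was 3.54 (SE 0.72) with an adjusted p of 0.9999 in edgeR and 0.0486 in DESeq2, from 34 and 179 counts.

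The 3 rule genes are given as a description. Their log2 change was 0.38 (SE 0.44) for Psma8, -0.34 (SE 0.34) for Piwil1 and -0.16 (SE 0.46) for Sycp3. No difference in the other pachytene genes named passed the test: for Sycp1 it was -0.23 (SE 0.64), for Mybl1 0.01 (SE 0.51), for Hspa2 -0.19 (SE 0.22), for Ccna1 0.22 (SE 0.64) and for H1f6 -0.86 (SE 0.66). In each of these the libraries of the groups overlapped. Kdm1a, the histone demethylase LSD1, read 102, 127 and 81.7 CPM, then 229, 177 and 182 CPM. Every stressed animal was above all controls. The log2 change was 0.85 (SE 0.36) and the adjusted edgeR p was 0.9999. Nr3c1, the glucocorticoid receptor, read 1.97, 11.1 and 0 CPM, then 0, 14.4 and 8.16 CPM (1.51, SE 1.54). The groups overlapped, and 21 of its 34 control counts were in control replicate 2, without which the log2 change was 3.45.

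By list, no member passed the test in either direction. The median log2 change was -0.16 for 9 synaptonemal genes, 0.18 for 10 cohesin genes, -0.53 for 19 recombination genes and -0.20 for 24 piRNA genes, against -0.09 for all genes tested. Over all tested genes 56.8% had a change below 0 and 43.2% above 0. Among recombination genes 14 of 19 were below 0 (73.7%). Mnd1, which works with Dmc1 in strand exchange, read 12.3, 15.4 and 7.63 CPM, then 113, 0.983 and 2.40 CPM (log2 change -2.71), with stressed replicate 1 above every control, although all 49 of its counts came from 1 cell. Of 37 division and spindle genes 26 (70.3%) were above 0 (median 0.22), and 11 of 12 late spermatocyte markers were (median 0.45). The markers include the genes of the late meiotic rule, whose levels took part in choosing the cells. Tpx2 and Cdca8 of that rule are in both lists, so the counts are not separate. Round spermatid markers include genes that defined other sets, and they sum to more in control replicate 3 than elsewhere. Of those tested, 10 of 11 were below 0 (median -0.68). Of 17 genes of sex chromosome silencing and DNA damage response 14 were below 0 (median -0.34). Medians were 0.03 for 37 proteasome genes, 0.02 for 28 late pachytene genes, -0.06 for 24 heat shock genes, 0.03 for 70 genes of oxidative phosphorylation, -0.20 for 13 apoptosis genes and -0.03 for 18 genes of oxidative stress defence. Of 19 glucocorticoid genes found, 6 had enough counts to test, with a median of 0.38. Mt-nd4l, of respiratory complex I, read 479, 419 and 352 CPM, then 238, 137 and 199 CPM (log2 change -1.25, SE 0.33). All 3 stressed animals were below all controls in that gene, whereas the 13 mitochondrial genes had a median of 0.05.

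Whether stress acted differently in the pachytene-like and late meiotic sets was tested as an interaction in edgeR, with the library as a block and without stressed replicate 1. The test called 0 of 11087 genes (0%), DESeq2 called 0, and 68 genes (0.613%) had an unadjusted edgeR p under 0.05. The 5 with the smallest p were Rbmy1j, Polr3f, Alpk1, Adgrv1 and Use1, each with an adjusted p of 1. Rbmy1j was lower in control members (1.06 to 1.80 CPM) than in the late meiotic cells of the same animals (17.7 to 48.7 CPM), while in stressed animals the ranges were 5.57 to 17.3 and 12.1 to 37.9 CPM. The log2 difference of the stress effects was 3.49 (SE 1.14). For Polr3f it was -3.25 (SE 1.06) and for Use1 -2.09 (SE 0.70). Adgrv1 rested mainly on control replicate 3, with 108 of its counts there, and Alpk1 on few counts.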

How the data were processed

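Single-cell RNA was measured in 6 rat testis libraries, made with the Singleron GEXSCOPE kit and sequenced on an Illumina NovaSeq with reads of 150 bp, per the labels' protocols. For each library the authors deposited whole-number counts, with genes in rows and cells in columns. The authors also deposited normalized values in natural log units, and every value equals ln(1 + x), where x is the count rescaled so that a cell sums to 10000. Not given in the sources used here are the aligner, the genome build, the cell filter and whether counts are reads or molecules. Counts are therefore treated as independent only for intervals, and floors and intervals cover counting error alone.

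The members and gene lists were chosen with earlier results of these data known. The normalized values served only to choose the members. Raw counts of members were summed per library, and libraries with at least 20 members were tested with edgeR 4.0.16 (quasi-likelihood, TMM scaling, filterByExpr, robust) in R 4.3.3, called at an adjusted p of 0.05. DESeq2 1.42.0 and limma 3.58.1 served as alternatives. The scripts were tested on simulated data. Scrublet was run in scanpy 1.11.5. Of 611 genes in 19 gene lists and 10 marker lists, 47 were not found under that name. Named genes were the 10 higher and 10 lower in stressed animals with a symbol, groups that do not overlap and the smallest p, plus Psma8, Piwil1, Sycp3, Mybl1, Sycp1, Hspa2, Ccna1, H1f6, Kdm1a and Nr3c1. Of the 10 higher genes, 1 is not reported here. For the interaction the 5 with the smallest p were named. Members of lists named in the report were chosen after their values were seen. Alternatives changed the choice of members, the scaling, the filter, the tool and the libraries. Replicates of a group differed beyond counting error (chi-square divided by its degrees of freedom, 25.5 to 75.3). That value treats counts within a cell as independent, so it cannot show that the libraries are separate samples. Each library was treated as a separate sample because the labels give each its own rat.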

Additional observations from a re-analysis of the deposited data

How the results depend on the processing

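No gene was called for stress in the members under any of the 15 edgeR and limma alternatives run, and DESeq2 called 1, AABR07001902.1 (log2 change 3.55). The number of genes at an unadjusted p under 0.05 ranged from 32 to 395, the latter with members that had all 3 rule genes, which left 2 control and 2 stressed libraries. The smallest adjusted p there was 0.141, and without control replicate 3 it was 0.480. With a replicate block 0 genes were called. The labels do not say whether the numbers pair the animals. With each gene's group mean taken off, same-numbered libraries correlated over genes at 0.0696, 0.0196 and 0.490, and differently numbered ones at -0.555 to 0.406. These are correlations of departures from the group mean and not of expression levels. These values do not settle whether the animals were paired. With the block the shares gave the same differences, -0.941 and -1.60 points (p = 1, permutation test). Stressed replicate 1 was not in the fit, so leaving it out was not run there. Adding it was chosen after seeing the data.

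The difference in the share of cells ran from -1.87 to 0.421 points over left-out replicates, the last without control replicate 1. The share of members in both meiotic sets changed sign with scores standardised within each library (1.53 points), a score margin of 0.5 (1.19), all 3 rule genes (3.71), at most 3400 genes per cell (0.768) and without stressed replicate 3 (3.70), and ran from -4.38 to 3.70 over left-out replicates. Of 36 results on named genes 30 kept their direction under all alternatives run. Use1 turned to 0.28 with stressed replicate 1 added. Psma8 turned to -0.056 without stressed replicate 2 (range over left-out replicates -0.056 to 0.81). Sycp3 turned to 0.35 without control replicate 2, 0.13 without stressed replicate 3 and 0.082 with stressed replicate 1 added (range -0.50 to 0.35). Sycp1 turned to 0.41, 0.40 and 0.43 in the same order (range -1.31 to 0.41), and Ccna1 to -0.06 and -0.73 in the first 2 (range -0.73 to 0.80). Mybl1, at 0.01, turned to -0.017 with scores standardised within libraries, -0.041 with the margin, -0.35 with all 3 rule genes, -0.057 with at most 3400 genes, -0.28 without control replicate 3 and -0.11 without stressed replicate 2 (range -0.28 to 0.22). Among list medians, the glucocorticoid list went to -0.11 and late pachytene genes to -0.20 without stressed replicate 3, apoptosis genes to -0.88 and mitochondrial genes to -0.45 without stressed replicate 2, and heat shock genes to 0.28 with stressed replicate 1 added. The cause was not tested. Depth limits stressed replicate 1 most, where 3 counts are 6.94 CPM.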
